A study of Mus musculus with 12 samples.

Results

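The genes of choline and phosphatidylcholine synthesis, 10 of the 55357 genes in the count table of this mouse liver RNA-seq study, were followed across genotype and diet. They are listed by name for their known function, a list drawn up with earlier results of these data known: Chka, Chkb, Pcyt1a, Pcyt2, Chpt1, Cept1, Pemt, Chdh, Bhmt and Bhmt2. All 10 had enough counts to enter the test, in which 17358 genes were compared.

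The study asked how loss of the fatty acid receptor PPARα in hepatocytes and a fatty liver diet change the liver. Male C57BL/6J mice carried floxed Ppara alleles (Ppara fl/fl) in both genotypes. WT mice had no Cre, and KO mice carried AlbuminCre Tg/+, a Cre driven by the albumin promoter that removes PPARα from hepatocytes while other liver cells keep the gene. From week 7 of age they received chow or CDAHFD, a high-fat diet that lacks choline and gives protein as defined L-amino acids, for 6 weeks, and livers were taken at 13 weeks of age. The liver libraries formed the groups WT chow (n = 4), WT CDAHFD (n = 3), KO chow (n = 2) and KO CDAHFD (n = 3). Each library was taken as 1 mouse, and p-values measure the spread between these libraries.

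Phosphatidylcholine is the main phospholipid of membranes and of the surface of lipoproteins. Liver makes it by 2 routes. In the CDP-choline route, choline from the diet is phosphorylated by choline kinase, activated to CDP-choline by a cytidylyl transferase, and joined to diacylglycerol by a choline phosphotransferase. In the other route, which is active mainly in hepatocytes, PEMT methylates phosphatidylethanolamine with methyl groups from S-adenosylmethionine. Choline that does not enter lipid is oxidized to betaine, starting with CHDH, and BHMT then passes a methyl group of betaine to homocysteine, which remakes methionine. The CDAHFD diet withdraws the substrate of the first route and of betaine formation.

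Of the 10 genes, Chpt1 had the lowest adjusted p against WT chow in both KO chow and WT CDAHFD. Bhmt fell most in KO chow (log2 fold change -1.54), but without WT chow replicate 2 Chpt1 fell further (-1.35, against -1.11 for Bhmt). Chka varied most with the clock genes described below. The 250 bases before the RefSeq start of these genes (GRCm38.p6) are printed 5′ to 3′ on the gene's strand, for Bhmt at chr13:93637759-93638008 (minus strand), for Chpt1 at chr10:88503971-88504220 (minus strand) and for Chka at chr19:3851523-3851772 (plus strand). Capitals mark the nuclear receptor half-site AGGTCA, the E-box CACGTG and the TATA box TATAAA, searched on both strands.
Bhmt: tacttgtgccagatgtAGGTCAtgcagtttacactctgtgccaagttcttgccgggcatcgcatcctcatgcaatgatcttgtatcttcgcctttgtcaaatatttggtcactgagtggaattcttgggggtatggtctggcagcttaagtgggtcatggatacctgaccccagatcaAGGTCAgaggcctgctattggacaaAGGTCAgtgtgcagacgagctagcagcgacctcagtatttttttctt
Chpt1: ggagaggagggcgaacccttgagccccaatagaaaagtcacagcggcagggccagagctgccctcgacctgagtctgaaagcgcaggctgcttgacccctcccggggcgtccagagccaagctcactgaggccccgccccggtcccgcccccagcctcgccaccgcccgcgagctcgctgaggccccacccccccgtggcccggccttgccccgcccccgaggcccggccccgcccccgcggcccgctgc
Chka: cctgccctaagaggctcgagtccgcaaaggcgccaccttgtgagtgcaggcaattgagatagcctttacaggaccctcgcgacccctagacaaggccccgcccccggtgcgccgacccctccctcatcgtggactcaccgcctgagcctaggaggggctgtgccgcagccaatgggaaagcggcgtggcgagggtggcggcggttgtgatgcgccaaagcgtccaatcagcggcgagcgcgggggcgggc
The Bhmt stretch held 3 half-sites, which began 234, 72 and 47 bases before the start and did not overlap. At least 1 half-site was found in 4604 of 32817 promoter windows of this length (14%). The Chpt1 and Chka stretches held none of the 3 motifs. An E-box was found in 6.02% of all windows and a TATA box in 12.4%. A DR1, which is 2 half-sites 1 base apart, was found in none of the printed stretches and in 0.0335% of all windows. The CCAAT box, not marked here, had 1 match in Bhmt, 1 in Chpt1 and 2 in Chka, and was found in 33.8% of all windows. These matches describe letters, and binding was not measured.

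Total counts ran from 29906785 to 43551003 per library. Levels are given as CPM (read counts relative to the TMM-scaled library size), and TMM factors ran from 0.7292 to 0.8268 in WT chow and from 1.026 to 1.258 in the other libraries. Ppara itself, the targeted gene, had 120.1, 96.2, 238 and 226 CPM in WT chow, 59.5, 75.5 and 73.5 in WT CDAHFD, 14.4 and 38.7 in KO chow, and 36.3, 20.7 and 51.9 in KO CDAHFD. Every KO library lay below every WT library, with a log2 fold change of -2.68 in KO chow (SE 0.50, adjusted p = 0.00111) and -0.94 in KO CDAHFD against WT CDAHFD (SE 0.42, adjusted p = 0.547). Ppara was also lower in WT CDAHFD than in WT chow (-1.29, SE 0.40, adjusted p = 0.0163). Of 10 PPARα target genes including Ppara, 4 were lower and 3 higher in KO chow than in WT chow, and 2 were lower in KO CDAHFD than in WT CDAHFD. Of all genes tested, 17.0% were lower and 22.0% higher in the first of these comparisons, and 0.357% were called in the second. The livers held hepatocyte transcripts in all groups: 8 markers such as Alb summed to between 87077 and 105863 CPM in WT chow, 79685 and 90681 for the KO chow livers, 46727 to 57272 for the WT livers on CDAHFD and 45991 to 61679 for the KO livers on it.

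Against WT chow, those of the 10 genes called in KO chow and in WT CDAHFD were all lower. In KO chow, 3 of the 10 were lower (Bhmt, Chpt1 and Pcyt2) and 0 higher, where 39.0% of all genes tested were called, 17.0% lower and 22.0% higher. In WT CDAHFD, 5 of the 10 were lower (Chpt1, Pcyt2, Bhmt2, Pemt and Cept1) and 0 higher, beside 51.1% of all genes called, 25.0% lower and 26.1% higher. The counts of 3 and 5 of 10 were thus near the shares of all genes called in either direction, and above those called lower. The median log2 fold change of the 10 was -0.47 in KO chow and -0.53 in WT CDAHFD, against 0.00 and -0.05 over all genes. These comparisons share the WT chow libraries. With library size as the only scaling the median of all genes was 0.40 and 0.51 on the log2 scale, and 86.0% and 88.6% of calls were then higher, against 56.4% and 51.0% with TMM. With that scaling Chpt1 was still called lower in both comparisons and Bhmt in KO chow, and the calls of Pcyt2, Pemt and Bhmt2 were lost. Cept1 in both comparisons and Pcyt1a and Chka in WT CDAHFD were then called higher, and Pemt in KO chow and Chdh in both had values above 0 that were not called. Set against the medians of all genes, the lost calls stood at -0.48 for Pcyt2 in KO chow. In WT CDAHFD they stood at -0.73 for Pcyt2, -0.67 for Pemt and -0.73 for Bhmt2. In bulk liver, fewer hepatocytes and less RNA of a gene per hepatocyte cannot be told apart.

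**Figure D1:**
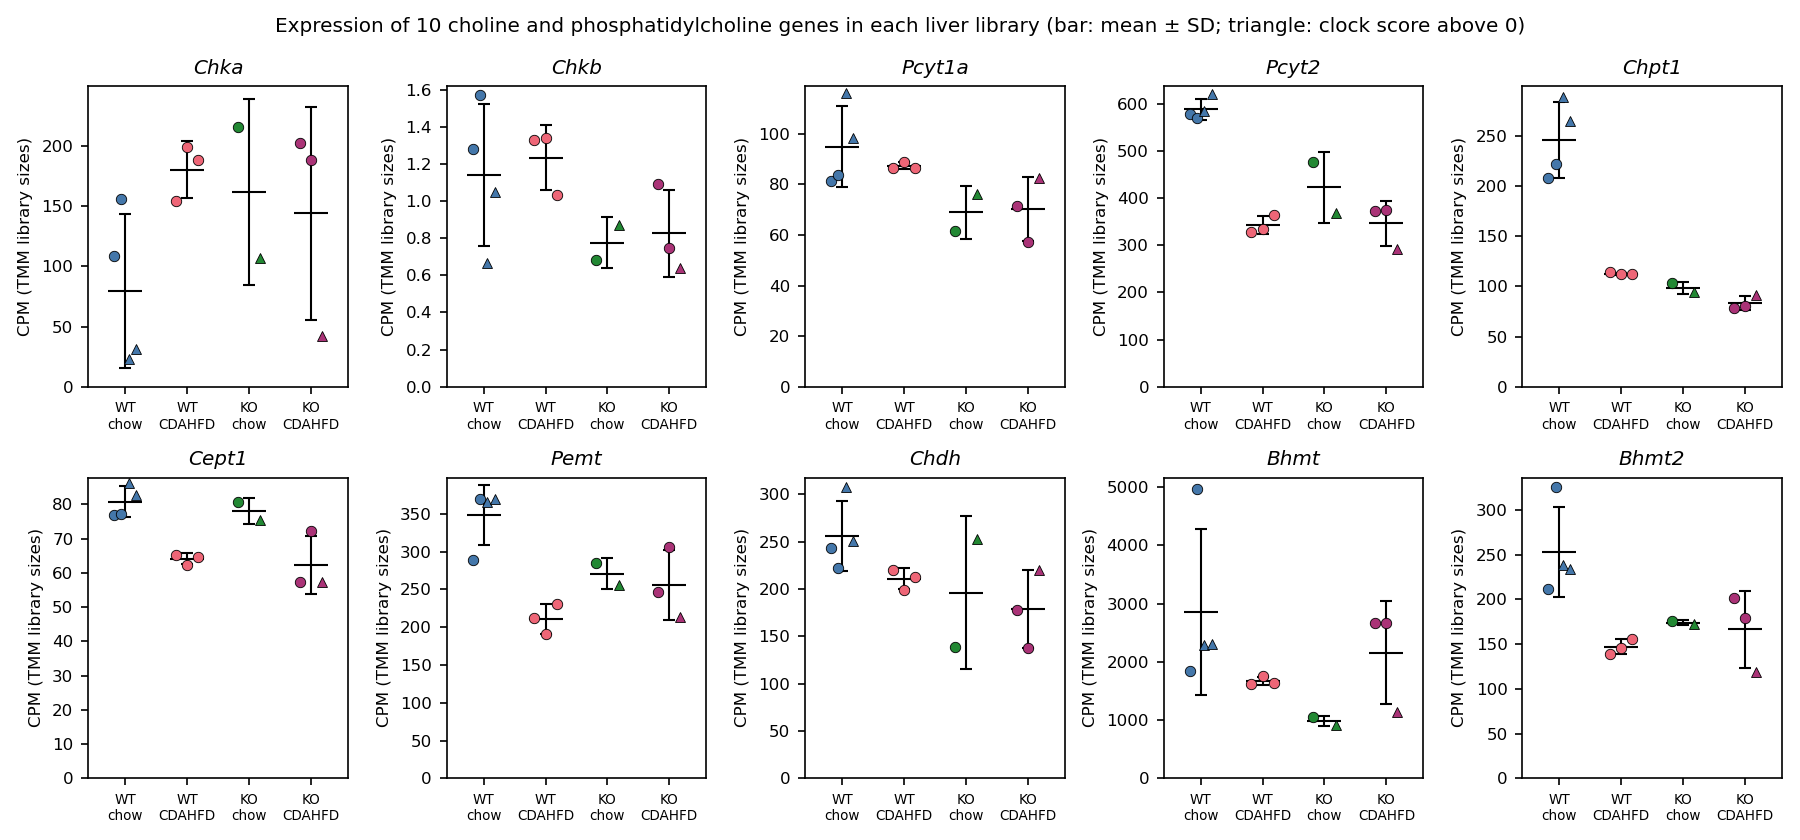
Level of each gene in each of the 12 libraries, in CPM on a linear axis from 0, by group. Points are libraries, horizontal lines the group mean and bars the SD; triangles are libraries with a clock score above 0. Chpt1 sits between 208 and 289 CPM in WT chow and between 78.9 and 114 CPM in all other libraries, while Chka falls into high and low libraries within groups.

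The choline kinases open the CDP-choline route. Chka (ENSMUSG00000024843, chr19:3851773-3894369) had 109, 156, 22.9 and 31.4 CPM in WT chow, 154, 199 and 188 in WT CDAHFD, 216 and 107 in KO chow, and 202, 188 and 42.2 in KO CDAHFD. The mean was 79.8 ± 64 CPM (SD, n = 4) in WT chow and 180.4 ± 23.1 (n = 3) in WT CDAHFD. A WT chow library thus reached the WT CDAHFD range while another pair lay several-fold below it. The log2 fold changes, 1.17 in WT CDAHFD (SE 0.61, adjusted p = 0.129) and 1.01 in KO chow (SE 0.68, adjusted p = 0.26), did not pass the test. With 1 library left out, the KO chow value ran from 0.43 to 1.58 and the WT CDAHFD value from 0.88 to 1.75. The WT CDAHFD value was called without WT chow replicate 2 (1.75, adjusted p = 0.0364) and with no filter on low counts (1.22, adjusted p = 0.0119). Chkb (ENSMUSG00000022617, chr15:89426360-89429908), the second kinase, ran from 0.642 to 1.57 CPM over the 12 libraries and had 468 counts in all, from 20 to 69 per library. Its groups overlapped, with log2 fold changes of -0.56 in KO chow (adjusted p = 0.25) and 0.11 in WT CDAHFD (adjusted p = 0.795). The libraries carry no strand, and C730034F03Rik on the opposite strand overlaps 10.5% of the Chkb exon length and held 54.7% as many counts as Chkb. Gm44502 on the same strand covers 50.7% of it and was listed at 0 counts. The Chkb level is therefore uncertain.

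The spread of Chka within groups went with the circadian clock genes, which rise and fall over the day. A clock score was formed as the mean log2 CPM of Dbp, Tef, Nr1d1, Nr1d2, Ciart and Per3 minus that of Arntl, Npas2, Clock and Nfil3. It was -4.252, -3.521, 2.854 and 2.746 in WT chow, -1.398, -2.375 and -2.361 in WT CDAHFD, -3.465 and 1.013 in KO chow, and -1.864, -1.743 and 3.637 in KO CDAHFD. WT CDAHFD was the only group with every library below 0. Chka was at 109 to 216 CPM in the 8 libraries below 0 and at 22.9, 31.4, 107 and 42.2 CPM in the 4 above 0. In a fit with the score as a covariate, Chka fell by 0.34 on the log2 scale per unit of score (SE 0.03, adjusted p = 7.52e-05), as 3.77% of all genes fell, and 8.48% were called in either direction. Ppara rose by 0.17 per unit (SE 0.03, adjusted p = 0.00628), and WT chow held 120.1 and 96.2 CPM of it in the libraries with a score below 0 and 238 and 226 CPM in those above 0, so its difference from WT CDAHFD, at 59.5 to 75.5 CPM, was smaller among libraries below 0. Pcyt1a rose by 0.06 per unit (SE 0.01, adjusted p = 0.0218), where 4.71% of all genes rose. The slopes of the other 8 genes lay between -0.11 and 0.07 and did not pass the test, with the lowest adjusted p for Chdh (0.0636). These slopes were read after the data had been seen. The hour at which livers were taken is not given in the sources used here, and Sphk2 and Thra on the opposite strand overlap Dbp and Nr1d1.

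With the clock score in the fit, Chka was higher in both single conditions. Its log2 fold change against WT chow was then 1.12 in KO chow (SE 0.20, adjusted p = 0.000721) and 1.06 in WT CDAHFD (SE 0.19, adjusted p = 0.000436). The interaction of Chka was -1.02 in this fit (SE 0.29, adjusted p = 0.0199), and -1.34 without the score (SE 0.95, adjusted p = 0.352), which did not pass the test. Without the score the interaction ran from -1.91 to -0.76 with 1 library left out. Over only the 8 libraries with a score below 0, an alternative chosen after seeing the data that leaves 1 KO chow library, Chka changed by 0.71 in KO chow (adjusted p = 0.0356) and 0.44 in WT CDAHFD (adjusted p = 0.0518), with an interaction of -0.60 (adjusted p = 0.162). The size of the Chka difference thus moved with how the score was handled, while its direction against WT chow did not.

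**Figure D2:**
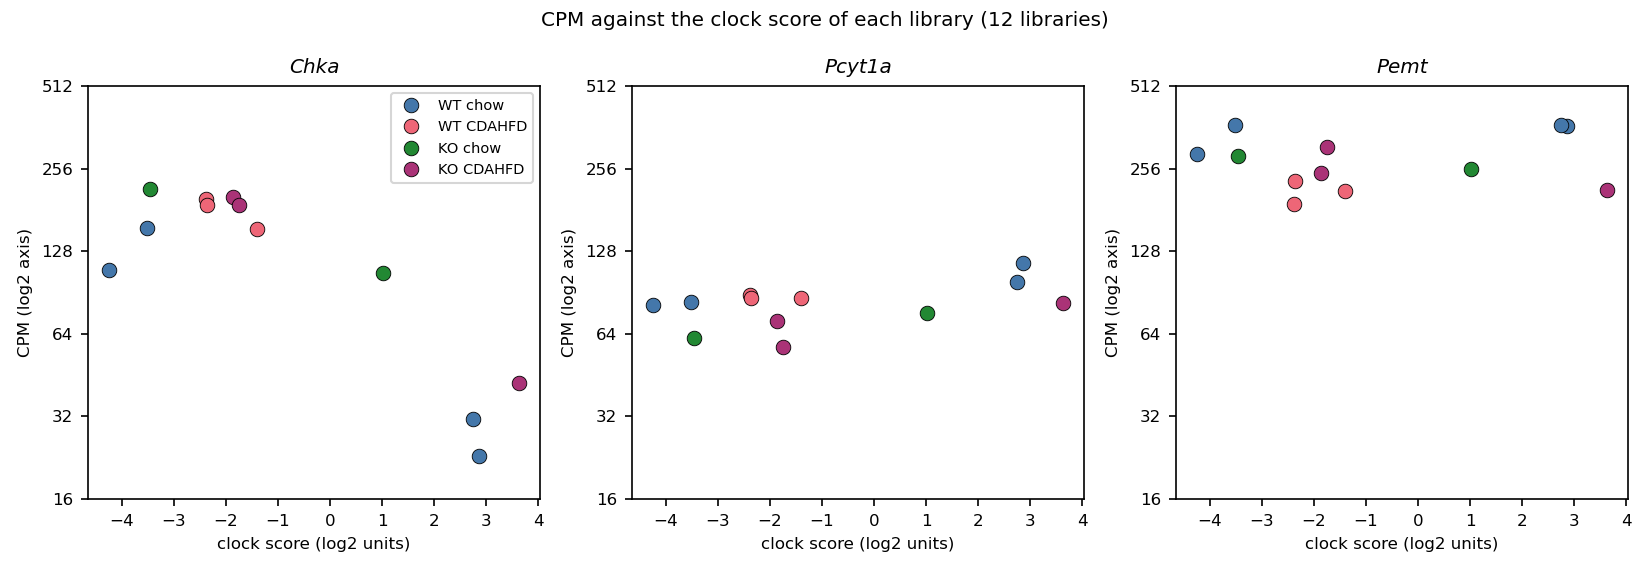
CPM of Chka, Pcyt1a and Pemt (log2 axis) against the clock score of the library (log2 units), 1 point per library, coloured by group. Chka is at 22.9 to 107 CPM in the 4 libraries with a score above 0 and at 109 to 216 CPM in the 8 below 0, whereas Pcyt1a and Pemt stay within narrower bands.

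The cytidylyl transferases make the activated head groups. Pcyt1a (ENSMUSG00000005615, chr16:32430921-32475070) encodes the enzyme that makes CDP-choline, the regulated step of its route. It had 81.2, 83.8, 116 and 98.5 CPM in WT chow, 86.5, 88.9 and 86.7 in WT CDAHFD, 61.6 and 76.3 in KO chow, and 71.3, 57.1 and 82.6 in KO CDAHFD. All 5 KO libraries lay below the WT CDAHFD libraries, and 4 of them below every WT library. No comparison passed the test: the log2 fold change was -0.46 in KO chow (SE 0.17, adjusted p = 0.0511), -0.12 in WT CDAHFD (SE 0.15, adjusted p = 0.535) and -0.31 in KO CDAHFD against WT CDAHFD (SE 0.16, adjusted p = 0.626). With the clock score as a covariate Pcyt1a was lower in KO chow (-0.41, adjusted p = 0.00809), and DESeq2 also called it (-0.45, adjusted p = 0.0447). The KO chow value thus lay on either side of the threshold, depending on the fit.

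Pcyt2 (ENSMUSG00000025137, chr11:120610087-120617936) encodes the matching enzyme for ethanolamine, which supplies the phosphatidylethanolamine that PEMT methylates. It had 578, 570.3, 584 and 621 CPM in WT chow, 329, 335 and 365 in WT CDAHFD, 476 and 369 in KO chow, and 373, 374 and 292 in KO CDAHFD. WT chow did not overlap with any other group. Pcyt2 fell by 41.7% in WT CDAHFD (log2 fold change -0.78, SE 0.12, adjusted p = 0.000188) and by 28.2% in KO chow (log2 fold change -0.48, SE 0.14, adjusted p = 0.0161). The KO chow call rested on 1 library, since without KO chow replicate 2 the value was -0.30 and the call was lost. The 8 libraries with a clock score below 0 leave out the same KO chow library, and gave -0.27.

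The phosphotransferases close the route, and in KO chow Chpt1 was called lower while Cept1 was not called. Chpt1 (ENSMUSG00000060002, chr10:88452745-88504073) encodes the choline phosphotransferase of the Golgi, and Cept1 (ENSMUSG00000040774, chr3:106502260-106547802) the enzyme of the endoplasmic reticulum that takes choline and ethanolamine alike. Chpt1 had 208, 222, 289 and 265 CPM in WT chow, 114, 112 and 112 in WT CDAHFD, 103 and 94.1 in KO chow, and 78.9, 80.8 and 91.7 in KO CDAHFD. Every library outside WT chow lay at or below 114 CPM, and the KO libraries were all below those of WT CDAHFD. Chpt1 fell by 59.9% in KO chow (log2 fold change -1.32, SE 0.14, adjusted p = 1.71e-05) and fell by 54% in WT CDAHFD (-1.12, SE 0.12, adjusted p = 9.39e-06). Leaving out any 1 of the 12 libraries kept both calls, at -1.37 to -1.22 and at -1.17 to -1.02.

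Cept1 had 76.9, 77.2, 86.2 and 82.8 CPM in WT chow, 65.3, 62.4 and 64.7 in WT CDAHFD, 80.7 and 75.4 in KO chow, and 57.4, 72.1 and 57.3 in KO CDAHFD. KO chow lay within or next to the range of WT chow, while both CDAHFD groups lay below it. The log2 fold change was -0.05 in KO chow (SE 0.11, adjusted p = 0.767) and -0.33 in WT CDAHFD (SE 0.10, adjusted p = 0.0155). The WT CDAHFD call was lost without WT CDAHFD replicate 2 (-0.31, adjusted p = 0.0599) with all genes kept (-0.28, adjusted p = 0.105) and over the 8 libraries with a clock score below 0 (-0.26, adjusted p = 0.0723). Cept1 shares 24.7% of its exon length with Dennd2d on the opposite strand, which held 16.5% as many counts, and 5 bases with Dram2 on the opposite strand, which held 106% as many.

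Set against each other in the same library, per exon length, Chpt1 stood at 1.01 to 1.25 times Cept1 in WT chow (mean 1.13, SD 0.111). The ratio was 0.649 to 0.674 in WT CDAHFD, 0.477 and 0.467 in KO chow, and 0.419 to 0.599 in KO CDAHFD. Per exon length, WT chow was thus the only group in which Chpt1 reached the level of Cept1. Without division by length, Chpt1 had more counts than Cept1 in every library. The lengths are those of all annotated exons, 8324 bases for Chpt1 and 3116 for Cept1. The order of the 2 genes depends on these lengths, while the shift of the ratio between groups does not. This ratio does not depend on the scaling of the libraries. An exact two-sided permutation test of 4 against 3 libraries cannot give a p below 0.0571, or below 0.133 for 4 against 2, and the ratios were not tested.

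**Figure D3:**
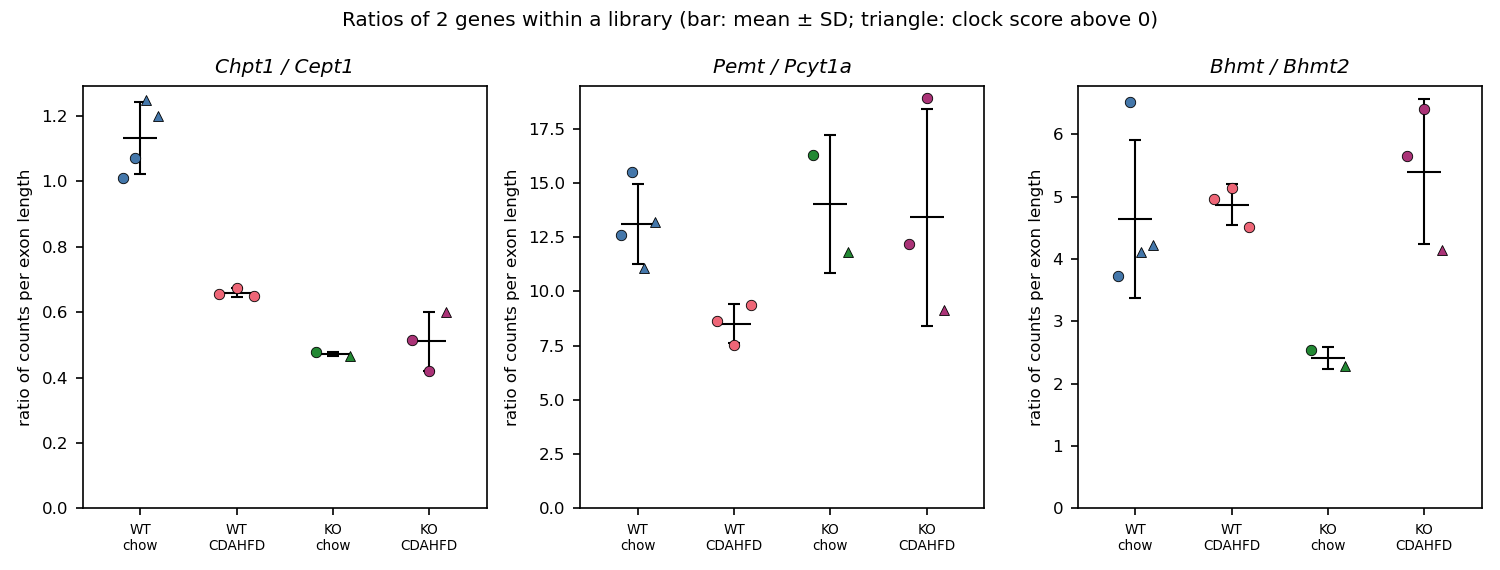
Ratio of counts per exon length of 3 gene pairs in each library, by group, on linear axes from 0. Points are libraries, horizontal lines group means and bars SDs, and triangles mark a clock score above 0. Chpt1 over Cept1 is at 1.01 or more in WT chow and at 0.674 or less elsewhere, and Bhmt over Bhmt2 is at 2.29 and 2.54 in KO chow and at 3.73 or more elsewhere.

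Pemt (ENSMUSG00000000301, chr11:59970614-60046489), whose product forms phosphatidylcholine without dietary choline, had 289, 369.9, 366 and 369 CPM in WT chow, 212, 190.4 and 230.4 in WT CDAHFD, 285 and 256 in KO chow, and 247, 306 and 214 in KO CDAHFD. WT CDAHFD lay below all WT chow libraries, and KO chow lay between these groups. Pemt fell by 39.4% in WT CDAHFD (log2 fold change -0.72, SE 0.14, adjusted p = 0.000896), a call kept without any 1 library. The log2 fold change in KO chow was -0.37 (SE 0.16, adjusted p = 0.0848). Within the KO genotype, CDAHFD gave a difference of -0.08 (SE 0.16, adjusted p = 0.82).

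Per exon length Pemt stood at 11.1 to 15.5 times Pcyt1a in WT chow, at 7.54 to 9.36 times in WT CDAHFD, at 16.3 and 11.8 times in KO chow and at 9.13 to 18.9 times in KO CDAHFD. The ratio was below the WT chow range in all WT CDAHFD libraries and in 1 library of KO CDAHFD, the one with a clock score of 3.637. The 3 genes with the pattern nearest to that of Pemt over the 12 libraries, by root mean square difference of centred log2 CPM, were Mcee (0.07), Marc2 (0.08) and Ndufc2 (0.08), where Pemt itself varied by 0.32 around its mean. For Pcyt1a they were Rad54l2 (0.07), Dock5 (0.07) and Shprh (0.08), against 0.26 for Pcyt1a around its mean. The search covered 12905 genes.

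In the betaine branch, Chdh (ENSMUSG00000015970, chr14:30009023-30040527), the choline dehydrogenase of mitochondria, had 243, 222, 308 and 250.1 CPM in WT chow, 220.3, 199 and 213 in WT CDAHFD, 139 and 253 in KO chow, and 178, 138 and 220.2 in KO CDAHFD. The first KO chow library was below all WT libraries and the other was within their range. No comparison passed the test, with log2 fold changes of -0.38 in KO chow (adjusted p = 0.208) and -0.28 in WT CDAHFD (adjusted p = 0.267). In KO chow the value was -0.87 without replicate 2 (adjusted p = 0.0177) and 0.0018 without replicate 1, so that 1 library decided it.

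Bhmt (ENSMUSG00000074768, chr13:93616675-93637961), betaine-homocysteine methyltransferase, was the most abundant of the 10. It had 1847, 4964, 2297 and 2304 CPM in WT chow, 1613, 1749 and 1645 in WT CDAHFD, 1045 and 922 in KO chow, and 2665, 2673 and 1144 in KO CDAHFD. KO chow was below every other library, and KO CDAHFD had 2 libraries within the WT chow range and 1 near KO chow. Bhmt fell by 65.5% in KO chow (log2 fold change -1.54, SE 0.41, adjusted p = 0.00942). Without WT chow replicate 2, the library at 4964 CPM, the value was -1.11 and the call was kept. It was lost when either KO chow library was left out (-1.62, adjusted p = 0.0576 without replicate 1, and -1.45, adjusted p = 0.0702 without replicate 2). In WT CDAHFD the log2 fold change was -0.77 (SE 0.34, adjusted p = 0.0735), or -0.34 without WT chow replicate 2 (adjusted p = 0.283). DESeq2 called it (-0.73, adjusted p = 0.048), as did the fit with the clock score (-0.92, adjusted p = 0.0163).

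Bhmt2 (ENSMUSG00000042118, chr13:93655720-93674302), the neighbouring gene for a methyltransferase that uses S-methylmethionine, had 212, 326, 239 and 234 CPM in WT chow, 139, 146 and 156 in WT CDAHFD, 176 and 172 in KO chow, and 202, 179 and 119 in KO CDAHFD. WT chow was above all other libraries. Bhmt2 fell by 41.8% in WT CDAHFD (log2 fold change -0.78, SE 0.18, adjusted p = 0.00301), and the value in KO chow was -0.54 (SE 0.21, adjusted p = 0.0552). DESeq2 called the KO chow difference of Bhmt2 (-0.53, adjusted p = 0.035). Per exon length Bhmt stood at 3.73 to 6.52 times Bhmt2 in WT chow, at 4.51 to 5.14 times in WT CDAHFD, at 2.54 and 2.29 times in KO chow and at 4.14 to 6.41 times in KO CDAHFD. KO chow thus had the lowest ratios, below every other library. The annotated transcripts of the pair share 0.747% of their windows of 30 bases, with a longest identical run of 59 bases. The patterns nearest to Bhmt over the 12 libraries were those of Ccdc162 (0.24), 2610528J11Rik (0.31) and Cmbl (0.32), farther than for Pemt, against 0.65 for Bhmt around its mean.

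Per kilobase of exon, the levels in WT chow ran from Bhmt (495 ± 247 CPM per kb, SD, n = 4) over Pemt (166 ± 18.7), Pcyt2 (135 ± 5.13), Bhmt2 (103 ± 20.4), Chdh (41.1 ± 5.89), Chpt1 (29.5 ± 4.51), Cept1 (25.9 ± 1.45), Pcyt1a (12.8 ± 2.15) and Chka (6.64 ± 5.32) to Chkb (0.374 ± 0.125), whose level and place are uncertain because of its overlapping genes. The ranges of Pemt and Pcyt2 overlapped, as did those of Pcyt2 and Bhmt2, of Chpt1 and Cept1, and of Pcyt1a and Chka, and the other neighbours in this order did not overlap. In KO chow, Bhmt stood at 171 ± 15.1 CPM per kb (n = 2) and Pemt at 128 ± 9.72.

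**Figure D4:**
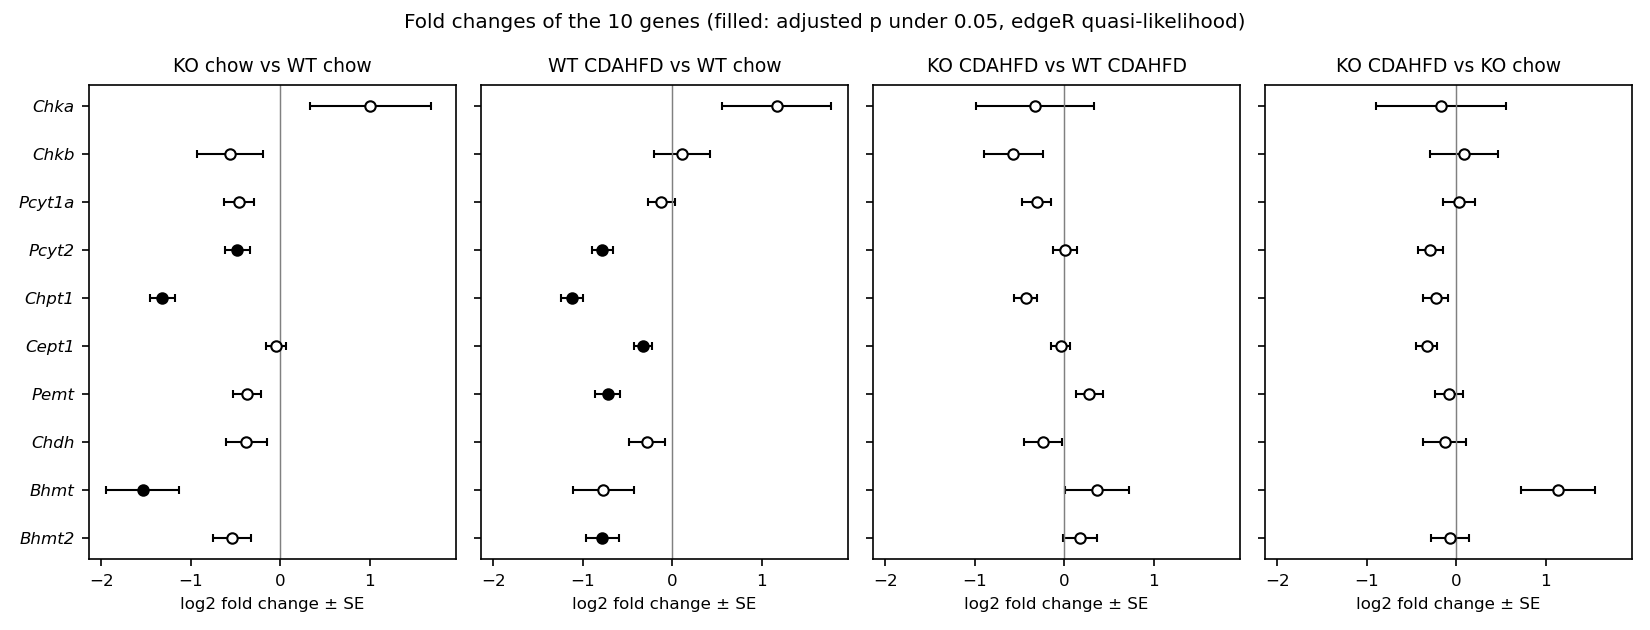
Log2 fold change with its SE (bars) of each gene in 4 comparisons, from the fit over 12 libraries. Filled points have an adjusted p under 0.05. Filled points are all on the lower side, 3 in KO chow and 5 in WT CDAHFD against WT chow, and the 2 comparisons of KO CDAHFD have none.

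For 3 genes the diet difference passed the test for a difference between the 2 genotypes, and only Chpt1 passed it whichever 1 library was left out. The interaction, which is the diet difference in KO minus that in WT, was above 0 for Bhmt (1.91, SE 0.53, adjusted p = 0.0208), Chpt1 (0.89, SE 0.19, adjusted p = 0.00457) and Pemt (0.64, SE 0.22, adjusted p = 0.048). Over all genes 23.1% were called in this comparison, 8.63% above 0 and 14.5% below it. Chpt1 fell by 1.12 with CDAHFD in WT and changed by -0.23 in KO (SE 0.14, adjusted p = 0.361), where it was low on chow. Bhmt went the other way within KO, at 1.14 (SE 0.41, adjusted p = 0.124), which did not pass the test. The Chpt1 interaction held without any 1 library (0.80 to 0.96), that of Bhmt in 8 of 12 such fits, and that of Pemt in 2 of 12. Pcyt2 (0.49, adjusted p = 0.0801) and Bhmt2 (0.71, adjusted p = 0.0855) had values of the same sign that did not pass edgeR's test. DESeq2 called Pcyt2 (0.49, adjusted p = 0.0399), and the fit with the clock score called Pcyt2 (0.56, adjusted p = 0.0375) and Bhmt2 (0.82, adjusted p = 0.0277). The Pemt interaction was lost with library size only (0.28, adjusted p = 0.26) and with no filter (0.60, adjusted p = 0.054). It was also lost with the replicate block (0.60, adjusted p = 0.128). With library size only the median of all genes was -0.34, and Pemt lay 0.62 above it. Over the 8 libraries with a clock score below 0, which leave 1 KO chow library, the Pemt interaction was 0.60. All interactions use the 2 KO chow libraries. They also use the same WT chow libraries as the comparisons with WT chow, so genes lower in both of those tend to values above 0.

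On CDAHFD, none of the 10 genes passed the test between the genotypes. Between KO CDAHFD and WT CDAHFD, 0 of the 10 passed edgeR's test and 0 passed DESeq2, where 0.357% of all genes were called by edgeR. An unadjusted p under 0.05 was found for 1 of the 10, beside 1523 of all 17358 genes. That gene was Chpt1, at -0.43 (SE 0.13, adjusted p = 0.288), whose KO libraries were all below the WT libraries. With the clock score as a covariate Chpt1 was called (-0.51, adjusted p = 0.0355). Between KO CDAHFD and KO chow, 0 of the 10 passed edgeR's test, beside 6.19% of all genes, and 2 had an unadjusted p under 0.05 (Bhmt and Cept1), beside 4002 of all 17358 genes. DESeq2 called 1 of them, Bhmt (1.17, adjusted p = 0.0312). In KO chow against WT CDAHFD, 0 of the 10 passed either tool, beside 6.12% of all genes by edgeR, and 2 had an unadjusted p under 0.05, Pemt at 0.36 (adjusted p = 0.205) and Cept1 at 0.28 (adjusted p = 0.171), beside 4168 of all 17358 genes.

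The genes around these steps are given by list, to be read beside the shares of all genes called, 26.1% higher and 25.0% lower in WT CDAHFD, and 22.0% higher and 17.0% lower in KO chow. Choline and betaine transporters went both ways: of 14 listed genes 10 were tested, and 5 were higher and 2 lower in WT CDAHFD than in WT chow, and 4 higher and 3 lower in KO chow. Slc44a2, a choline transporter-like protein, rose from 9.82 ± 2.61 to 24.4 ± 1.57 CPM in WT CDAHFD (log2 fold change 1.31, adjusted p = 4.55e-05). Flvcr2, a choline transporter, rose from 3.82 ± 1.55 to 14.5 ± 2.07 CPM (1.92, adjusted p = 0.000102). Slc6a12, the betaine transporter, fell from 101 ± 20.1 to 53.2 ± 6.15 CPM (-0.93, adjusted p = 0.000755), and Slc25a48, a mitochondrial carrier linked to choline import, from 21.2 ± 3.97 to 10.7 ± 3.46 CPM (-0.99, adjusted p = 0.00329). In KO chow, Slc44a2 (0.95), Flvcr2 (1.79) and Slc6a12 (-0.75) also passed the test.

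In the methionine cycle, 9 of 14 genes were lower and 1 higher in WT CDAHFD, and 5 lower and 0 higher in KO chow. Gnmt, the glycine methyltransferase that uses up S-adenosylmethionine, fell from 1941 ± 521 to 345 ± 69.7 CPM in WT CDAHFD (log2 fold change -2.49, adjusted p = 2.59e-06), and was at 905 ± 75.2 CPM in KO chow (-1.10, adjusted p = 0.0047). Ahcy, which splits S-adenosylhomocysteine, fell by 1.89 in WT CDAHFD (adjusted p = 3.2e-07) and by 1.56 in KO chow (adjusted p = 1e-05). Mat2a, an S-adenosylmethionine synthetase, was the gene that rose, from 97.3 ± 20.1 to 203 ± 24.7 CPM in WT CDAHFD (1.06, adjusted p = 0.000121). It stood at 97.3 ± 6.78 CPM in KO chow and 195 ± 27.9 CPM in KO CDAHFD. The Mat2a level was thus high in both CDAHFD groups and low in both chow groups.

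Most genes of the steps after CHDH fell. The list holds 11 genes of aldehyde oxidation, including Aldh7a1, which forms betaine, of betaine breakdown and of the one-carbon units it yields. Of these, 11 were lower in WT CDAHFD and 9 in KO chow. Those not called in KO chow were Amt (-0.53, adjusted p = 0.0635) and Gcsh (-0.39, adjusted p = 0.0523), of the glycine cleavage system. In the test for an interaction 8 passed, all above 0, where 8.63% of all genes did. The interaction uses the same WT chow libraries, so genes lower in both comparisons tend to values above 0. Of 8 hepatocyte markers 3 passed it, all above 0. Pipox, which oxidizes sarcosine and pipecolate, fell from 369 ± 59.1 to 96.6 ± 18.9 CPM in WT CDAHFD (log2 fold change -1.93, adjusted p = 1.44e-06). Shmt1, a serine hydroxymethyltransferase, fell from 249.6 ± 42.5 to 81.9 ± 11.3 CPM (-1.61, adjusted p = 3.22e-06). Smcr8 on the opposite strand overlaps Shmt1 and held 34% as many counts.

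Of 14 genes of ethanolamine and serine phospholipids, 5 were higher and 5 lower in WT CDAHFD, and 2 higher and 1 lower in KO chow. Etnppl, which breaks down phosphoethanolamine, fell from 329 ± 130.3 to 43.8 ± 10.6 CPM in WT CDAHFD (log2 fold change -2.91, adjusted p = 1.21e-05) and was at 267 ± 102 CPM in KO chow (-0.30, adjusted p = 0.52). Etnk2, an ethanolamine kinase, fell from 287 ± 60.2 to 123 ± 15.2 CPM (-1.22, adjusted p = 0.000809). Cds1, a CDP-diacylglycerol synthase, rose by 1.41 (adjusted p = 0.00725) and Phospho1, a phosphatase of phosphoethanolamine and phosphocholine, by 1.23 (adjusted p = 0.0189), both from under 1 CPM in WT chow. Pcyt1b, a second gene for the enzyme that makes CDP-choline, is counted in this list and was higher by 2.24 on the log2 scale in WT CDAHFD (adjusted p = 0.000427), and by 2.12 for the KO chow libraries (adjusted p = 0.00198), from 0.191 ± 0.0576 CPM in WT chow to 0.92 ± 0.172 and 0.839 ± 0.494 CPM. It had a mean of 40 counts, below the limit for named genes, and was picked out after its values were seen. Phospho1 overlaps Zfp652 and Abi3 over most of its exon length, and its counts are uncertain.

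Of 22 genes of phosphatidylcholine remodelling and breakdown, 10 were higher and 7 lower in WT CDAHFD, and 6 higher and 4 lower in KO chow, the latter counts being near those shares. Mboat1 (2.23, adjusted p = 0.000588) and Lpcat4 (2.01, adjusted p = 2.62e-05), which reacylate lysophospholipids, rose in WT CDAHFD from 0.483 ± 0.245 and 0.783 ± 0.31 CPM. Lcat, the plasma enzyme that takes an acyl chain from phosphatidylcholine to esterify cholesterol, fell from 502 ± 39.6 to 236 ± 25 CPM (-1.09, adjusted p = 3.96e-06). Gpcpd1, which splits glycerophosphocholine, fell by 1.58 (adjusted p = 0.00941) in WT CDAHFD and by 2.19 (adjusted p = 0.0059) in KO chow.

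**Figure D5:**
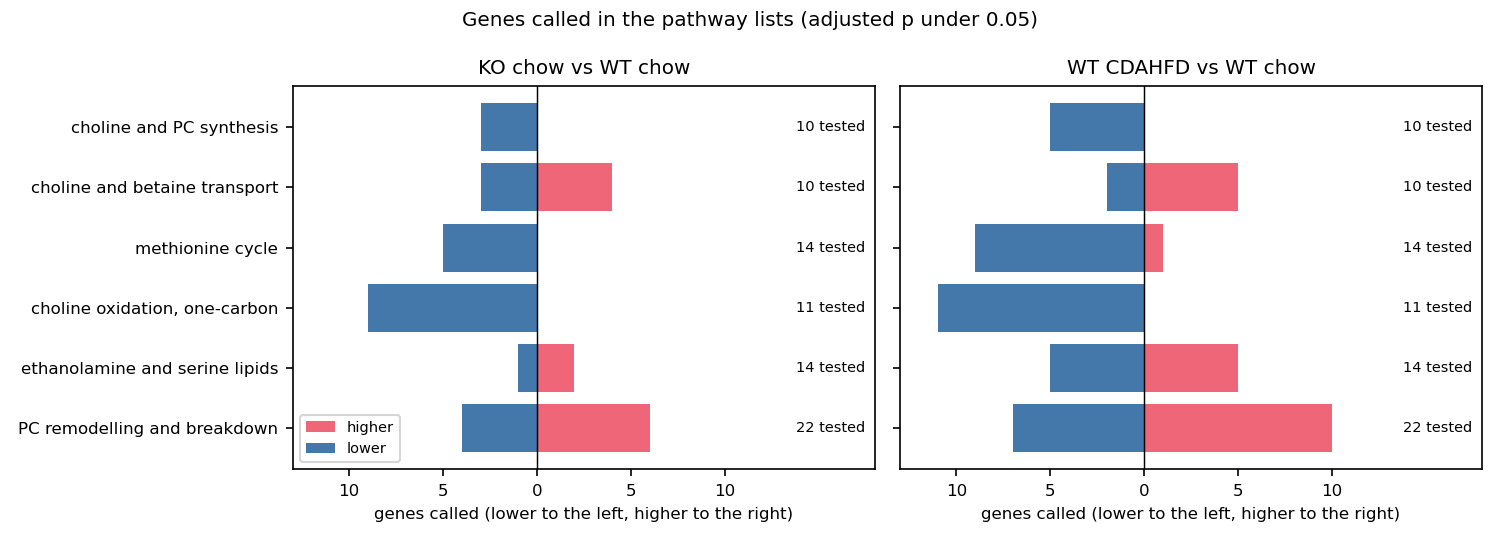
Number of genes called lower (left) and higher (right) at an adjusted p under 0.05 in each pathway list, with the number tested at the right, in KO chow and WT CDAHFD against WT chow. The list of choline oxidation after CHDH and one-carbon units has 9 and 11 of 11 genes on the lower side and 0 on the higher side, and the transport and remodelling lists have genes on both sides.

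Markers of other liver cells moved in the same comparisons. Hepatocyte markers were lower for 5 of 8 genes in KO chow and 8 of 8 in WT CDAHFD, and their summed level is given above. Alb, which was not called in KO chow (log2 fold change -0.20), made up most of that sum in every group. Stellate cell markers were higher for 6 of 8 in each comparison, with sums of 236 to 326 CPM in WT chow, between 1361 and 1544 CPM in KO chow, and up to 1753 CPM in WT CDAHFD, where the lowest was 1637. Macrophage markers were higher for 7 of 8 in KO chow (1159 to 1385 CPM against 335 to 609 in WT chow) and 6 of 8 in WT CDAHFD (1516 to 2097 CPM). Cholangiocyte markers were higher for 7 and 8 of 8. Their sums lay between 47.5 and 80.9 CPM in WT chow, 176 and 301 CPM in KO chow, and 366 and 589 CPM in WT CDAHFD. Spp1 made up most of these sums, with means of 47.3, 196 and 424 CPM in the same order. Endothelial markers were higher for 1 of 8 in KO chow and lower for 5 of 8 in WT CDAHFD. Lymphocyte markers were higher for 2 of 8 in each, near the shares of all genes called higher (22.0% and 26.1%). They summed to 4.22 to 10.2 CPM over the 12 libraries. The median log2 fold change of the hepatocyte markers was -0.62 in KO chow and -0.94 in WT CDAHFD, beside -0.47 and -0.53 for the 10 choline genes. The part of the cell makeup in the values of the 10 genes was not tested.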

How the data were processed

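Liver mRNA of 12 libraries was measured by RNA-seq. Groups came from the titles, genotype and treatment fields of the labels, which give 4, 3, 2 and 3 libraries, where the study's methods state 3 mice per group. The description of 1 KO chow library is numbered 3 although the group has 2 libraries. The authors deposited raw read counts per Ensembl gene, without normalization. Per the labels and methods, poly-A RNA was made into non-directional libraries and checked with FastQC 0.11.5, reads were aligned to GRCm38 with STAR 2.7.3a, and DESeq2 was used. The counting program and annotation are not given in the sources used here. Symbols and positions came from GENCODE M21, which held 94.08% of the identifiers and 99.691% of the counts, and promoters from RefSeq (GRCm38.p6).

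Counts were analysed in R 4.3.3 with edgeR 4.0.16 (filterByExpr, TMM, glmQLFit with the earlier defaults, glmQLFTest), with a mean for each of 4 groups over the 12 libraries. Of 55357 genes, 30104 had a count and 17358 were tested. P-values of this edgeR test were adjusted after Benjamini and Hochberg across the 17358 genes, and a gene was called below an adjusted p of 0.05. The SE is the log2 fold change divided by the square root of F. Depth was 29906785 to 43551003 counts, and 3 counts or fewer were taken as the floor, which no member reached. The model was also tested on simulated data of 16903 genes, of which 200 were changed. The changed genes had a mean above 2 CPM, a level that Chkb did not reach, and all other genes had equal group means. In the data a far larger share of genes was called, so the rates of recovery hold for the simulated setting only. In WT CDAHFD against WT chow, 81% of 2-fold and 99% of 4-fold changes were recovered, and in KO chow against WT chow 64% and 99%.

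The members and gene lists were chosen with earlier results of these data known. Named were the 10 members, from each pathway list up to 2 of the largest rises and 2 of the largest falls called in WT CDAHFD against WT chow with a mean count of at least 50, the 3 genes most like Pemt, Pcyt1a and Bhmt, and Ppara. Aldh7a1, Amt, Gcsh, Pcyt1b, Alb, Spp1 and the genes of the clock score were named outside this rule. Overlapping genes are mentioned where they held at least 10% of a named gene's counts. Alternatives were median-of-ratios factors, library size only, no filter, a replicate block, the clock score as a covariate, only the groups compared, DESeq2 1.42.0, each library left out and, chosen after seeing the data, only the 8 libraries with a clock score below 0. Figures were drawn with Python 3.11.15 and matplotlib 3.10.9.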

Additional observations from a re-analysis of the deposited data

Results flagged for a closer look

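Chance marks about 1 in 20 groups by the gap test used here, which sets the gap of the lowest or highest library to its neighbour against the range of its group. The Pemt level of WT chow replicate 1, at 289 CPM, lay apart from the other three, with a gap of 0.949 of the range. The Bhmt level of WT chow replicate 2, at 4964 CPM, lay apart in the same way, with a gap of 0.853 of the range.

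The diet difference differed between the genotypes, by the interaction in edgeR's quasi-likelihood fit, for Pemt (0.64, adjusted p = 0.048), Chpt1 (0.89, adjusted p = 0.00457) and Bhmt (1.91, adjusted p = 0.0208). The Pemt interaction did not pass with library size only (0.28, adjusted p = 0.26) or with no filter (0.60, adjusted p = 0.054). It also did not pass with the replicate block (0.60, adjusted p = 0.128). With 1 library left out it passed in 2 of 12 fits. With library size only the median of all genes was -0.34, and Pemt lay 0.62 above it. Over the 8 libraries with a clock score below 0, which leave 1 KO chow library, the Pemt interaction was 0.60.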

How the results depend on the processing

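All values are log2 fold changes or counts from the fits named, and causes were not tested where none is shown. Chpt1 kept its direction and its call in both comparisons with WT chow and in the interaction under every alternative run. Depth limits Chkb, with 20 to 69 counts per library, and KO chow has 2 libraries, so that leaving 1 out assumes that the other varies like the other groups.

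Values of the 10 genes that changed sign were not called with TMM, except Cept1 in WT CDAHFD. With library size as the only scaling they were Pemt 0.04, Cept1 0.36 and Chdh 0.02 in KO chow against WT chow, Pcyt1a 0.45, Cept1 0.23 and Chdh 0.28 in WT CDAHFD against WT chow, Cept1 0.0046 in KO CDAHFD against WT CDAHFD, Pemt 0.12, Chka 0.01, Bhmt2 0.13 and Chdh 0.09 in KO CDAHFD against KO chow, and Pcyt1a -0.20, Cept1 -0.35 and Chdh -0.19 in the interaction. With that scaling the medians of all genes in these comparisons were, in the same order, 0.40, 0.51, 0.06, 0.20 and -0.34. Set against them, Pemt was at -0.36 and Chdh at -0.38 in KO chow. In WT CDAHFD Pcyt1a was at -0.06, Cept1 at -0.28 and Chdh at -0.23, each with its TMM sign. The others listed also had their TMM sign, except Cept1 in the interaction (-0.01). That scaling made 90.0%, 19.1% and 13.7% of calls higher in KO CDAHFD against KO chow, KO chow against WT CDAHFD and the interaction, against 60.7%, 44.2% and 37.3% with TMM. With the clock score as a covariate the values that changed sign were Chka 0.10 in KO CDAHFD against WT CDAHFD, Chka 0.03 and Pcyt1a -0.05 in KO CDAHFD against KO chow, Chka 0.06 in KO chow against WT CDAHFD, and Chkb 0.11, Pcyt1a -0.03 and Chdh -0.03 in the interaction. Over the 8 libraries with a clock score below 0 they were Cept1 0.07 in KO chow and Chkb -0.21 and Pcyt1a 0.08 in WT CDAHFD against WT chow, Chka 0.11 and Cept1 0.01 in KO CDAHFD against WT CDAHFD, Bhmt2 0.11 and Chdh 0.18 in KO CDAHFD against KO chow, Chka 0.26 in KO chow against WT CDAHFD, and Chkb 0.65, Pcyt1a -0.03 and Cept1 -0.06 in the interaction. The Cept1 interaction was -0.00051 with DESeq2, -0.00036 with median-of-ratios factors and -0.04 with no filter.

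The replicate numbers did not pair the libraries: same-numbered libraries of different groups had correlations of their deviations of -0.242 to 0.266 (15 pairs), and others -0.266 to 0.245. With the replicate block, 5433, 7797, 59, 640, 731 and 3137 genes were called in KO chow and WT CDAHFD against WT chow, KO CDAHFD against WT CDAHFD and against KO chow, KO chow against WT CDAHFD and the interaction, against 6763, 8863, 62, 1075, 1063 and 4011 without it. Under the block the calls of Pcyt2 in KO chow (-0.48, adjusted p = 0.0532), Cept1 in WT CDAHFD (-0.32, adjusted p = 0.0585) and the Pemt interaction (0.60, adjusted p = 0.128) were lost, and Chka 0.06 and Pcyt1a -0.08 in KO CDAHFD against KO chow and Chkb 0.17 and Cept1 -0.01 in the interaction changed sign.

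Counts of genes called in KO CDAHFD against WT CDAHFD were 215 with no filter, 183 with the clock score, 113 over the 8 libraries, 154 with only the groups compared and 250 with DESeq2. In KO CDAHFD against KO chow they were 1670 with the clock score, 600 over the 8 libraries, 581 with only the groups compared and 1903 with DESeq2. In KO chow against WT CDAHFD they were 2491 with the clock score, 2680 over the 8 libraries, 1985 with only the groups compared and 2074 with DESeq2. Of the 10 genes, 6 were called with the clock score and 5 with DESeq2 in KO chow against WT chow, and 6 with the clock score in the interaction, beside 7602, 7247 and 4651 of all 17358 genes in these fits. Between KO CDAHFD and WT CDAHFD 1 was called with the clock score. Between KO CDAHFD and KO chow 1 was called (Bhmt) with no filter, with the clock score and with DESeq2, beside 1340, 1670 and 1903 of all genes in these fits. In KO chow against WT CDAHFD 1 was called with the clock score, 3 over the 8 libraries and 1 with only the groups compared.

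With each library left out in turn, 4320 to 7128 genes were called in KO chow against WT chow, 26 to 75 in KO CDAHFD against WT CDAHFD, 233 to 1437 in KO CDAHFD against KO chow and 260 to 1469 in KO chow against WT CDAHFD. Of the 10 genes 2 to 6 were called in KO chow against WT chow, 0 to 1 in KO CDAHFD against KO chow and 1 to 5 in the interaction. In the interaction 4011 of all 17358 genes were called with all 12 libraries, and up to 4630 with 1 left out. Values that changed sign ran, in KO chow against WT chow, from -0.08 to 0.0024 for Cept1 and from -0.87 to 0.0018 for Chdh. In WT CDAHFD against WT chow they ran from -0.07 to 0.33 for Chkb and from -0.16 to 0.01 for Pcyt1a. In KO CDAHFD against WT CDAHFD they ran from -0.65 to 0.11 for Chka, from -0.16 to 0.02 for Cept1 and from -0.04 to 0.12 for Pcyt2. In KO CDAHFD against KO chow they ran from -0.23 to 0.03 for Pemt, from -0.59 to 0.44 for Chka, from -0.16 to 0.28 for Chkb, from -0.10 to 0.19 for Pcyt1a, from -0.23 to 0.13 for Bhmt2 and from -0.48 to 0.36 for Chdh. In KO chow against WT CDAHFD they ran from -0.76 to 0.26 for Chka and from -0.60 to 0.26 for Chdh. In the interaction they ran from -0.27 to 0.18 for Chkb, from -0.01 to 0.30 for Pcyt1a, from -0.11 to 0.06 for Cept1 and from -0.23 to 0.63 for Chdh.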
